A study of Mus musculus with 4 samples.

Results

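Type 1 conventional dendritic cells were 280 of the 27447 cells kept from 29092 barcodes of 4 single-cell RNA libraries of CT26 tumours. A kept cell had at least 200 detected genes and under 15% mitochondrial unique molecular identifiers (UMIs). A kept cell entered the class with at least 2 UMIs of Xcr1 and Clec9a together, fewer than 10 UMIs of C1qa, C1qb and C1qc per 10000, at most 1 UMI of Cd3d and Cd3e, fewer than 3 of Siglech, and not 2 or more of both Ccr7 and Fscn1. The members were thus chosen on measured levels of these genes, which are given below as a description only. CT26 is a colon carcinoma line grown as a tumour in Balb/c mice. In all 4 libraries the mice were 9 weeks old, and leukocytes were taken from the dissociated tumour with magnetic beads that hold CD45-bearing cells. The 2 liproxstatin libraries came from mice given liproxstatin-1, a small molecule that blocks ferroptosis by stopping lipid peroxidation, over 8 days, and the 2 control libraries from mice labelled control. What the control mice received is not given in the sources used here, and the drug reached the whole mouse, so an effect on dendritic cells and an effect through other cells cannot be told apart. The labels do not say whether the 2 libraries of a group came from separate mice, so a p-value here rests on how far these 4 libraries spread, whatever the source of that spread.

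Type 1 conventional dendritic cells arise under the transcription factors IRF8 and BATF3 and the growth factor receptor FLT3. They take up material from dead cells, present its peptides on MHC class I to CD8 T cells (cross-presentation), and can make interleukin 12. Clec9a encodes a receptor for actin filaments exposed on dead cells, and Xcr1 the receptor for a chemokine that CD8 T cells and natural killer cells release. Type 2 conventional dendritic cells mainly serve CD4 T cells, and migratory dendritic cells are a matured state of either type that carries CCR7, the receptor that leads cells to lymph nodes. The study compared treated with control tumours to ask what blocking ferroptosis does to the leukocytes of a tumour.

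The class held 92 and 73 cells in liproxstatin replicates 1 and 2, and 56 and 59 cells in control replicates 1 and 2. Its summed depth was 2921375 and 1947774 UMIs in the liproxstatin libraries, against 1733512 and 1651249 UMIs in the control libraries. Single members had 1200 to 72560 UMIs, with medians of 32574 and 26048 in liproxstatin and 34686 and 25997 in control libraries. The 4 whole libraries held 83129874 to 168597163 UMIs, the lowest in control replicate 1. Scrublet ranked 6 members as doublets, 4 of them in liproxstatin replicate 1, and 2 members carried a barcode that occurs in a second library, as did 114 of all kept cells.

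Of the 280 members, 232 had UMIs of both Xcr1 and Clec9a, 22 of Xcr1 only and 26 of Clec9a only. 180 members had 10 or more UMIs of the pair, 47 had 4 to 9 and 53 had 2 or 3. The members with 2 or 3 UMIs made up 17.4% and 11% of the class in the liproxstatin libraries, against 26.8% and 23.7% in the control libraries. These members were shallower, with a median of 8665 UMIs against 36712 in members with 10 or more. They also had less of other type 1 genes and more of the type 2 marker Cd209a. Irf8 stood at 909 CPM (UMIs of the gene per 1000000 UMIs summed over the cells) and Itgae at 74.2 CPM in them, against 1894 and 261 CPM in members with 10 or more, whereas Cd209a stood at 148 against 2.70 CPM. Just inside the limit, the 28 members with 2 UMIs had 1181 CPM of Irf8 and 54.6 CPM of Itgae. Just outside it, the 113 cells with 1 UMI that met all other terms had 525 and 9.69 CPM. A further 180 cells met every term but that on C1q, and 11 every term but that on Ccr7 and Fscn1. The 5 members nearest the C1q limit, at 8 to 10 UMIs per 10000, had 1708 CPM of Irf8. The 1 cell just outside it, at 10 to 12, had 131 CPM at a depth of 7624 UMIs, too few to show a break at the limit.

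The RefSeq promoters of the 2 genes that define the class are shown because each holds a match to a composite element, TTTC and TGA 4 bases apart, on either strand, in which the first is an IRF contact and the second a half-site of the AP-1 family, to which BATF3 belongs. The match is in capitals. The sequences run 5′ to 3′ on the gene's strand, from 250 bases before to 50 bases after the start, in GRCm38.p6. The Xcr1 window is chr9:123861980-123862279 (minus strand) and the Clec9a window chr6:129408612-129408911 (plus strand).
Xcr1: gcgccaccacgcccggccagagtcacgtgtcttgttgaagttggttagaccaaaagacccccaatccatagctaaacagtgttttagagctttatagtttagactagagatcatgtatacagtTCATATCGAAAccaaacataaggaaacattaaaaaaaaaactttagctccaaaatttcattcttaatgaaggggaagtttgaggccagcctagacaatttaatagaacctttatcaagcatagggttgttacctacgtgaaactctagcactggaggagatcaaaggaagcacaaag
Clec9a: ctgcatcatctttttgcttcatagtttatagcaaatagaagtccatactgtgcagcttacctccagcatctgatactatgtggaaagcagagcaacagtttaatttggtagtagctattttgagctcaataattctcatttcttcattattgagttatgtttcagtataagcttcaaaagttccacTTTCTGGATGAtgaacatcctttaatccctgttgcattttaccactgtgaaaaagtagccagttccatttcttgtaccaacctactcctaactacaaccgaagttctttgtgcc
The Xcr1 match read TCATATCGAAA, on the strand opposite the gene, and the Clec9a match TTTCTGGATGA. The element was searched after values were seen. It was present in 4.56% of all 32851 promoters of the table and in 7.69% of the 26 promoters found for the list of type 1 identity genes. Of the genes higher in type 1 than in type 2 cells (below), 2.35% of 895 promoters held it, and of those lower, 4.32% of 1089. A match is a description of letters in this window and not evidence of binding.

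Of the 4 markers of the label, Flt3 and Irf8 were not used by the rule. Irf8 had 1698 and 1901 CPM in liproxstatin and 1555 and 1905 CPM in control members, and on average 126 CPM in type 2, 1212 CPM in migratory and 2868 CPM in plasmacytoid cells. Flt3 had 110 and 85.2 CPM in liproxstatin and 92.3 and 104 CPM in control members, against 26.9 CPM in type 2, 101 CPM in migratory, 122 CPM in plasmacytoid cells and 0.370 CPM in macrophages on average. Irf8 thus set the class apart from type 2 cells and not from every other dendritic cell. Flt3 is used by the rule for type 2 cells, so its contrast with them is a description only. Batf3 had 150 and 168 CPM in liproxstatin and 158 and 142 CPM in control members. Sums of markers of other cells are partly fixed by the rule, which limits Cd3d and Cd3e among the T cell markers and C1qa, C1qb and C1qc among the macrophage markers. The 6 T cell markers summed to 12.3 and 12.3 CPM in liproxstatin and 12.1 and 8.48 CPM in control members, against 4249 CPM in gated T cells. The 7 macrophage markers summed to 351 and 231 CPM in liproxstatin and 384 and 423 CPM in control members, against 24149 CPM in gated macrophages, and all 7 were detected. The 6 neutrophil markers summed to 273 and 14.9 CPM in liproxstatin and 557 and 33.9 CPM in control members, against 86235 CPM in gated neutrophils. In replicate 1 of both groups most of that sum was S100a9, of which 1 cell alone held 359 UMIs. The basophil marker Mcpt8, and Col1a1 and Krt8 of fibroblasts and carcinoma cells were at 0 in every library of the class.

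The share of type 1 cells among all kept cells was 1.12% and 0.838% in liproxstatin and 1.44% and 0.889% in control libraries. The means were 0.978% ± 0.198 (SD, n = 2) in liproxstatin and 1.17% ± 0.391 (n = 2) in control libraries, and the ranges overlapped (two-sided exact permutation test, p = 0.667). The exact 95% Clopper-Pearson intervals of single libraries, which cover counting error only, reached from 0.658% to 1.37% in liproxstatin and from 0.678% to 1.87% in control libraries. Among gated dendritic cells of 4 kinds (types 1 and 2, migratory and plasmacytoid), type 1 cells were 39.8% and 31.2% in liproxstatin and 35.7% and 36.4% in control libraries (two-sided exact permutation test, p = 1). With 2 libraries against 2, no p below 0.333 can be had. The difference changed sign for both shares when a single library was left out, and for the share of gated dendritic cells also under a stricter rule, so no direction is given.

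**Figure D1:**
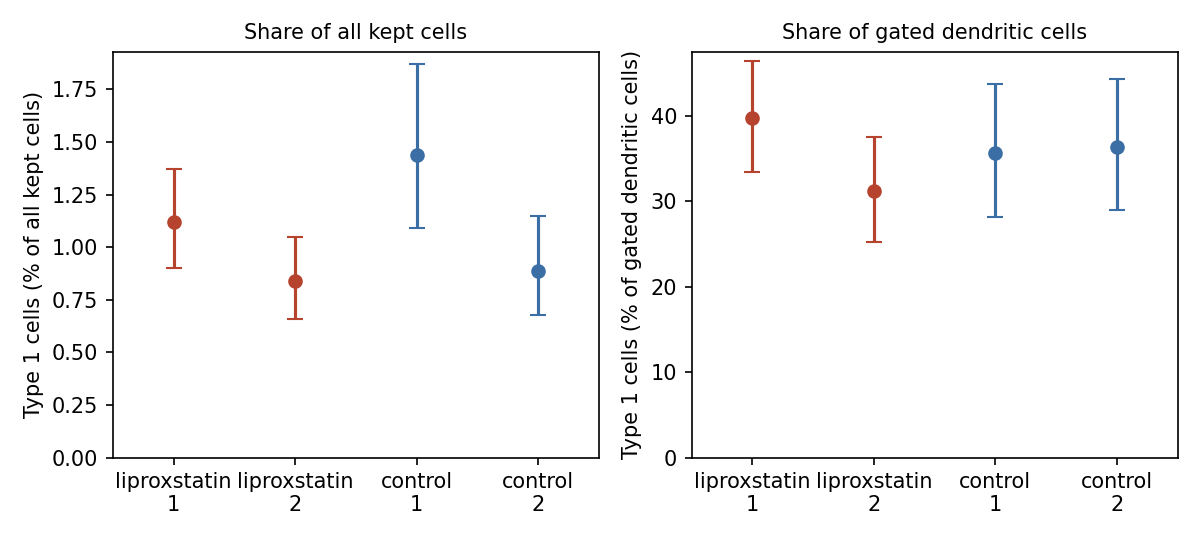
Share of type 1 conventional dendritic cells by library, in percent of all kept cells (left panel) and of gated dendritic cells (right panel). Points are the 4 libraries, bars exact 95% binomial intervals, which overlap between the groups in both panels.

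Type 1 cells were set against type 2 cells of the same 4 libraries (99 cells, 20 to 30 per library, chosen on Flt3 or Zbtb46 with Cd209a, Clec10a and Mgl2, and without Xcr1 and Clec9a). 873 of 7326 genes were higher in type 1 cells (11.9%) and 1030 lower (14.1%) by edgeR's quasi-likelihood test with the library as a block and Benjamini-Hochberg adjustment, and the median log2 fold change over all genes was 0.01. Genes used by either rule were left out of the lists and named genes. Because the cells were chosen on related markers, the comparison describes 2 gates and not independent classes. A gene low in 1 class could enter the test through the other class alone. Itgae, Cadm1, Gcsam, Cd36 and Dnase1l3 did so through type 1 cells, and Il7r through type 2 cells. Fold changes of such genes describe levels, and their calls are no support for a difference. List counts that include such genes are partly fixed by the filter. Of the list of type 1 identity genes, 23 of 25 tested were higher and 1, the transcription factor gene Nfil3, lower, with a median log2 fold change of 2.94.

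Among transcription factors, Irf8 averaged 1765 ± 170 CPM (SD, n = 4 libraries) in type 1 and 126 ± 28.8 CPM in type 2 cells, a log2 fold change of 3.84 ± 0.13 (SE; adjusted p = 8.68e-09). Batf3 averaged 155 ± 11.2 CPM in type 1 and 61.0 ± 29.4 CPM in type 2 cells (1.42 ± 0.25; adjusted p = 0.00412). Id2, which also drives the lineage, averaged 1191 ± 96.9 CPM in type 1 and 440 ± 43.8 CPM in type 2 cells (1.45 ± 0.08). All 4 libraries showed the higher level in type 1 cells for each of the 3 genes.

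Itgae, the integrin chain CD103, averaged 237 CPM in type 1 cells and 5.13 CPM in type 2 cells (log2 fold change 5.63 ± 0.43). Cadm1, an adhesion molecule, averaged 176 against 4.92 CPM (5.13 ± 0.57), Cd24a 438 against 35 CPM (3.66 ± 0.20), Plet1 416 against 34.1 CPM (3.67 ± 0.22) and the inhibitory receptor gene Btla 157 against 16.5 CPM (3.27 ± 0.19). Cxcr3, the receptor for CXCL9 and CXCL10, had 375 UMIs in type 1 and 2 UMIs in type 2 cells, a ratio of levels of 53.0 (95% counting interval 14.6 to 439). Rab7b, a small GTPase of late endosomes, had 1955 UMIs in type 1 and 3 in type 2 cells, a ratio of 184 (62.9 to 894). Gcsam, a signalling adaptor first known from germinal centres, averaged 152 CPM in type 1 and 2.82 CPM in type 2 cells (5.65 ± 0.53), and Dnase1l3, a secreted DNase, 114 and 7.14 CPM (3.98 ± 0.26). Ppt1, a lysosomal thioesterase, averaged 708 and 53.6 CPM (3.74 ± 0.12), and Gng12, a G protein subunit, 182 and 15.9 CPM (3.53 ± 0.19).

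Receptors for nucleic acids and dead cells differed in both directions. Tlr3, the endosomal sensor of double-stranded RNA, averaged 153 ± 44.6 CPM in type 1 and 14.1 ± 6.72 CPM in type 2 cells (3.43 ± 0.21), and Tlr11, a sensor of profilin, 49.1 and 6.33 CPM (2.94 ± 0.36). Cd36, a scavenger receptor, averaged 83.8 CPM in type 1 and 5.54 CPM in type 2 cells (3.86 ± 0.36), and Tlr2, a sensor of bacterial lipopeptides, 9.14 and 55.5 CPM (-2.58 ± 0.36). Of 14 tested pattern receptor genes, 4 were higher and 4 lower.

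The genes of antigen presentation did not move as 1 group. Of 29 tested genes of cross-presentation and MHC class I, 10 were higher and 7 lower in type 1 cells, with a median of -0.15. Wdfy4, which cross-presentation of cell-bound antigen requires, averaged 398 CPM in type 1 and 77.8 CPM in type 2 cells (2.36 ± 0.12). The peptide transporter gene Tap1 averaged 308 and 214 CPM (0.53 ± 0.11) and the immunoproteasome gene Psmb9 1353 and 573 CPM (1.25 ± 0.09). The class I light chain gene B2m averaged 2050 CPM in type 1 and 2787 CPM in type 2 cells (-0.44 ± 0.06), and Cybb, a NADPH oxidase subunit, 45.5 and 320 CPM (-2.88 ± 0.35). Of 14 tested MHC class II genes, 9 were lower, Cd74 and H2-Ab1 by 0.27 and 0.24 on the log2 scale, and only March1 was higher.

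Genes lower in type 1 cells included Il7r, the interleukin 7 receptor (2.31 CPM in type 1 and 100 CPM in type 2 cells), S100a4, a calcium-binding protein (118 and 1772 CPM), the C-type lectin genes Clec4n (22.5 and 340 CPM) and Clec4a3 (10.5 and 149 CPM), the lipid transfer gene Pltp (10.7 and 279 CPM), the lipid droplet gene Hilpda (20.7 and 298 CPM), and the membrane protein genes Tmem176a (9.14 and 193 CPM) and Tmem176b (13 and 180 CPM). Their log2 fold changes ran from -5.33 to -3.80. Of 30 tested genes of the NF-kappaB list, 20 were lower and 0 higher, with a median of -0.93 (Nfkb1 -1.39 ± 0.15, Relb -0.91 ± 0.24, Il1b -2.20 ± 0.24). Of 25 hypoxia and glycolysis genes, 8 were lower and 1 higher (Hk2 -1.17 ± 0.21, Slc2a1 -1.26 ± 0.21). Of 15 tested ferroptosis defence genes, 5 were lower and 1 higher. Gpx4, the lipid peroxide reductase, averaged 167 ± 8.86 CPM in type 1 and 240 ± 46.1 CPM in type 2 cells (-0.50 ± 0.12), and Slc7a11, a subunit of the cystine importer, 4.78 and 26.0 CPM (-2.54 ± 0.48).

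**Figure D2:**
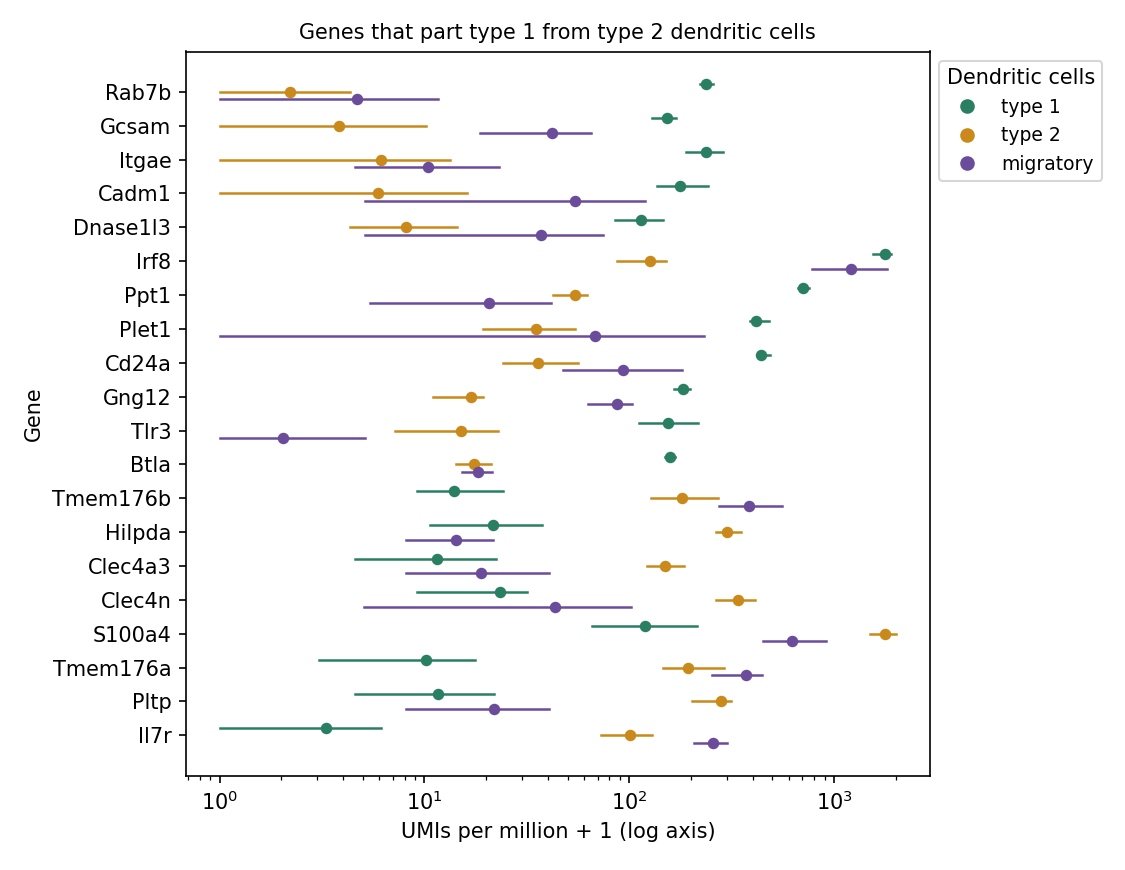
Mean CPM plus 1 (log axis) in type 1, type 2 and migratory dendritic cells for the 20 genes named by size in the comparison of type 1 with type 2 cells, where measured. Points are means of the 4 libraries and lines run from the lowest to the highest library, and the ranges of type 1 and type 2 cells are separate for every gene shown.

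Of 31 tested genes of the type I interferon response, 15 were lower in type 1 than in type 2 cells and 0 higher, with a median of -0.77. Ifitm3, an antiviral membrane protein, averaged 1266 ± 284 CPM in type 1 and 4242 ± 387 CPM in type 2 cells (-1.76 ± 0.11), Oas3, a sensor enzyme of viral RNA, 15.7 and 48.3 CPM (-1.58 ± 0.30) and Bst2, which tethers virions, 317 and 437 CPM (-0.41 ± 0.12). The ubiquitin-like gene Isg15 averaged 320 ± 149 CPM in type 1 and 534 ± 166 CPM in type 2 cells and did not pass (-0.77 ± 0.36; adjusted p = 0.219), nor did Ifit3 (-1.50 ± 0.74), whose counts are uncertain because of its near-identical copy Ifit3b. The promoters of Isg15, Ifit3 and Bst2 are shown because they hold the element that marks this list, GAAA, any 2 bases and GAAA again, on either strand, in capitals where it occurs (overlapping matches run together). Their windows in GRCm38.p6 are chr4:156200769-156201068 (minus strand) for Isg15, chr19:34583279-34583578 (plus strand) for Ifit3 and chr8:71537423-71537722 (minus strand) for Bst2, read as above.
Isg15: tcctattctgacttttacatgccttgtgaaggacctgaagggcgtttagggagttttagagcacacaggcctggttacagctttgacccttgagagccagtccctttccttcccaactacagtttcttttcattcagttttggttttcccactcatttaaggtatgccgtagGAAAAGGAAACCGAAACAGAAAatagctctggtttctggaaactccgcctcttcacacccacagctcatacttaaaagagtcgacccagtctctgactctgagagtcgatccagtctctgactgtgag
Ifit3: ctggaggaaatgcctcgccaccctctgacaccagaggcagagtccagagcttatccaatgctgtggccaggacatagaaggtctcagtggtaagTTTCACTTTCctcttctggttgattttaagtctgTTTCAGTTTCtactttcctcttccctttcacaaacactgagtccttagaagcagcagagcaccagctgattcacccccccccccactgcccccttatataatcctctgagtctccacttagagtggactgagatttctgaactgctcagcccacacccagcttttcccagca
Bst2: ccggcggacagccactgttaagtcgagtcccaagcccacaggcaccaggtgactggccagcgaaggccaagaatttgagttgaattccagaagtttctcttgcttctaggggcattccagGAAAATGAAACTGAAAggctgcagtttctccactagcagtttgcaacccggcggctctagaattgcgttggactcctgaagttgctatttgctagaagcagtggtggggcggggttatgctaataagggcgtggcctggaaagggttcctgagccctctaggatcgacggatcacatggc
The Isg15 window held 3 matches and the windows of Ifit3 and Bst2 held 2 each. The element was present in 60.0% of the 30 promoters found for the list, against 3.44% of all promoters of the table. It was in 3.13% of promoters of genes higher in type 1 than in type 2 cells and in 6.52% of those lower.

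Against migratory dendritic cells (60 cells, 13 to 18 per library), 1315 of 6790 genes were higher in type 1 cells (19.4%) and 1263 lower (18.6%), with a median log2 fold change of 0.06 over all genes, in the same kind of edgeR fit. Here too a gene low in 1 class could enter through the other alone, and the same limits hold. Il4i1, Stat4, Mreg, Nudt17 and Dnajc12 did so through migratory cells, and Tlr3, Ciita and Rrm2 through type 1 cells. The lineage factor gene Batf3 did not pass, at 155 ± 11.2 CPM in type 1 and 143 ± 45.3 CPM in migratory cells (-0.09 ± 0.20; adjusted p = 0.769). Of 24 tested identity genes, 2 were lower in type 1 cells, Id2 (-0.48 ± 0.14; adjusted p = 0.011) and Nfil3 (-2.73 ± 0.24), and 18 were higher, among them Naaa, an acid amidase (1711 CPM in type 1 and 40.6 CPM in migratory cells), and Itgae (237 and 9.46 CPM). Tlr3 had 1239 UMIs in type 1 and 1 UMI in migratory cells, a ratio of levels of 149 (95% counting interval 26.7 to 5901). Ciita, the master regulator of MHC class II transcription, had 1627 UMIs against 2, a ratio of 98 (27.1 to 810), and 6 of 13 tested MHC class II genes were higher in type 1 cells. The other genes named by size as higher in type 1 cells were Unc119, Pclaf, Ckb, Otulinl, Ifi205, Ppt1, Rab7b, Hist1h1b and Rrm2, of which Rrm2, a subunit of the enzyme that makes deoxynucleotides, was at 0 UMIs in migratory cells and at least 34.4-fold higher in type 1 cells (taking 3 UMIs over the 4 libraries for the migratory level).

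The genes of maturation were low in type 1 cells. Of 23 tested, 22 were lower and 0 higher, with a median of -4.46. Cd40, which receives help from CD4 T cells, averaged 47.8 ± 8.91 CPM in type 1 and 353 ± 100 CPM in migratory cells (-3.09 ± 0.19), the costimulatory ligand gene Cd80 14.6 and 159 CPM (-3.68 ± 0.25), and Cd274, the PD-1 ligand, 43.9 and 335 CPM (-3.17 ± 0.21). The subunit of interleukin 12 encoded by Il12b averaged 5.69 ± 6.92 CPM in type 1 and 1311 ± 709 CPM in migratory cells (-8.15 ± 0.82; adjusted p = 0.00561), and the chemokine gene Ccl5 16.1 and 7424 CPM (-9.18 ± 0.64). Il4i1, an amino acid oxidase, averaged 1.47 and 384 CPM, Ramp3, a receptor subunit, 4.69 and 770 CPM, Mreg, a melanosome protein, 1.07 and 163 CPM, Stat4, a transcription factor, 2.57 and 387 CPM, Nudt17 1.29 and 193 CPM, and Dnajc12 0.642 and 116 CPM. Of 29 tested NF-kappaB genes, 20 were lower and 2, Ccl3 and Ccl4, higher. B2m and H2-K1 were lower by 1.48 and 1.36 on the log2 scale.

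Type 1 cells carried more RNA of the cell cycle than either comparison class. All 38 tested cell cycle genes were higher than in migratory cells, and 18 of 39 were higher than in type 2 cells, among them genes of DNA replication (Mcm5 56.8 ± 9.56 against 17.9 ± 7.90 CPM, log2 fold change 1.67 ± 0.27). Ccnb1, Kif11 and E2f1, at 0 UMIs in migratory cells, were among genes that entered the test through type 1 cells alone. The count of 38 is thus partly fixed by the filter and is a description. Mki67, which marks cycling cells, averaged 158 ± 43.8 CPM in type 1 and 57.6 ± 66.6 CPM in type 2 cells and did not pass there (1.70 ± 0.82; adjusted p = 0.261). With every cell thinned to 3000 UMIs, which left out 6 liproxstatin and 4 control members, 39.1% and 23.6% of type 1 cells had a UMI of Mki67 or Top2a in liproxstatin and 32.7% and 32.1% in control libraries (two-sided exact permutation test, p = 1). Without thinning the shares were 58.7% and 49.3% in liproxstatin and 53.6% and 50.8% in control libraries. The thinned share in neutrophils, which do not divide and had a median of 3649 UMIs against 29230 in type 1 cells, was 4.46% and 4.49% in liproxstatin and 1.56% and 5.22% in control libraries. Over the 4 libraries the thinned share was 22.3 ± 13.5 percentage points (SD) higher in type 1 than in type 2 cells and 28.0 ± 4.40 points higher than in migratory cells, each in 4 of 4 libraries (two-sided exact permutation within pairs, p = 0.125, the smallest 4 pairs allow). Against gated macrophages it was 6.47 ± 6.47 points higher, from 2.13 to 16.1. Gated T cells had thinned shares of 27.3% and 27.8% in liproxstatin and 29% and 29.1% in control libraries, so cycling was not particular to type 1 cells.

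Liproxstatin-1 was then compared with control within type 1 cells, over UMIs summed per library. 14 of 8531 genes were higher with liproxstatin-1 (0.164%) and 4 lower (0.0469%) by edgeR's quasi-likelihood test with Benjamini-Hochberg adjustment, at 505 genes with an unadjusted p under 0.05 and a median log2 fold change of 0.00. Ccr7 is among the 14, but the rule uses it and it entered the test through the liproxstatin libraries alone. Its call is thus not read as a result. The 2 libraries of each group did not overlap for any of the 18, as for 34.7% of all genes tested. The counts turned on single libraries. Leaving out liproxstatin replicate 1 gave 2 higher and 2 lower, of which 2 were among the 18. Leaving out liproxstatin replicate 2 gave 21 and 2, of which 11 were among the 18, leaving out control replicate 1 gave 91 and 41, and leaving out control replicate 2 gave 40 and 84, with the lone library of a group assumed to vary like the others. DESeq2 called 9 higher and 1 lower. With types 1 and 2 and migratory cells in a single fit sharing the spread, 0 genes passed, at 133 with an unadjusted p under 0.05.

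Genes induced early after a stimulus were among those that rose. Dusp2, a phosphatase of MAP kinases (chromosome 2, 127336159 to 127338376, plus strand, GRCm38), had 26.4 and 23.1 CPM in liproxstatin and 6.92 and 6.66 CPM in control libraries (log2 fold change 1.90 ± 0.31, SE; adjusted p = 0.00533). Klf6, a transcription factor, had 569 and 430 CPM in liproxstatin and 323 and 300 CPM in control libraries (0.72 ± 0.13; adjusted p = 0.0191), and Jund, a subunit of AP-1, had 909 and 945 CPM against 612 and 662 CPM (0.58 ± 0.10; adjusted p = 0.00676). Sik1, a kinase induced by cyclic AMP, had 66.7 and 66.7 CPM in liproxstatin and 30.0 and 35.1 CPM in control libraries (1.08 ± 0.19; adjusted p = 0.00676). Klf6 was also higher in both liproxstatin libraries of gated macrophages (620 and 548 against 386 and 420 CPM) and of type 2, migratory, plasmacytoid and T cells. The same held for Jund in migratory cells, macrophages and T cells. It held for Sik1 in type 2 cells, plasmacytoid cells and macrophages, and for Dusp2 in T cells. In the other gated classes the groups overlapped. These rises were thus not particular to type 1 cells. Of the list of immediate early and dissociation genes, 3 of 26 tested rose and 0 fell, with a median of 0.49 and a positive sign in 24. Fos (1156 and 1084 CPM in liproxstatin, 1218 and 489 CPM in control) and Egr1 (56.1 and 20.0 against 22.5 and 20.0 CPM) did not pass.

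Tsc22d3, the glucocorticoid-induced leucine zipper gene (chromosome X, 140539528 to 140600659, minus strand), had 140.0 and 183 CPM in liproxstatin and 80.8 and 64.2 CPM in control libraries (1.19 ± 0.17; adjusted p = 0.00322). It was detected in 75 of 92 and 62 of 73 liproxstatin cells, and in 36 of 56 and 33 of 59 control cells. Without each library in turn it passed every time, and it did not pass without cells that had Mki67 or Top2a (0.36; adjusted p = 0.85) or in the fit of 3 dendritic cell types (1.19; adjusted p = 1). Its level was also higher in both liproxstatin libraries of gated macrophages (121 and 125 CPM, against 57.3 and 53.8 CPM in control) and of gated plasmacytoid cells (326 and 345 CPM, against 84.8 and 74.8 CPM in control). The same held in gated T cells (221 and 211 against 69.1 and 66.9 CPM), neutrophils (197 and 238 against 109 and 79.9 CPM) and type 2 cells (58.1 and 137 against 20.7 and 35.3 CPM). In migratory cells the groups overlapped (52.9 and 128 against 61.6 and 32.1 CPM). The rise was thus not particular to type 1 cells. Of 18 tested genes of the glucocorticoid-inducible list, Tsc22d3 alone rose and 0 fell, with a median of 0.49 and a positive sign in 16. Ddit4, an inhibitor of mTOR signalling on the same list, had 15.1 and 13.9 CPM in liproxstatin and 6.35 and 2.42 CPM in control libraries and did not pass (1.74 ± 0.43; adjusted p = 0.14).

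The other genes that rose have varied roles. Enc1, an actin-binding protein, had 26.0 and 23.1 CPM in liproxstatin and 8.08 and 3.63 CPM in control libraries (2.10 ± 0.35; adjusted p = 0.00533). Bcl2l14, of the BCL2 family, had 26.4 and 26.7 CPM in liproxstatin and 8.65 and 10.9 CPM in control libraries (1.48 ± 0.29; adjusted p = 0.0202), and migratory cells had 264 to 422 CPM of it. Of 20 tested genes of the maturation list, Bcl2l14 rose and 0 fell. Ccr7 also passed, but the rule uses it, so its call is a description only. The median of that list was 0.02, with a positive sign in 10 and a negative sign in 10. Trim35, a ubiquitin ligase, had 202 and 199 CPM in liproxstatin and 117 and 115 CPM in control libraries (0.83 ± 0.14). Gpr171, a G protein-coupled receptor, had 342 and 307 CPM against 209 and 173 CPM (0.81 ± 0.13), and Kctd12, an auxiliary subunit of GABA receptors, 435 and 403 CPM against 245 and 271 CPM (0.74 ± 0.12). Rsrp1, a protein rich in arginine and serine, had 164 and 181 CPM in liproxstatin and 103 and 105 CPM in control libraries (0.77 ± 0.14). Gpr171 and Rsrp1 were also higher in both liproxstatin libraries of every other gated class, and Trim35 in each but neutrophils. Serpina3g, a protease inhibitor induced by interferon gamma, had 305 and 214 CPM in liproxstatin and 114 and 132 CPM in control libraries (1.12 ± 0.17), and its counts are uncertain because of near-identical neighbours in its gene cluster.

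**Figure D3:**
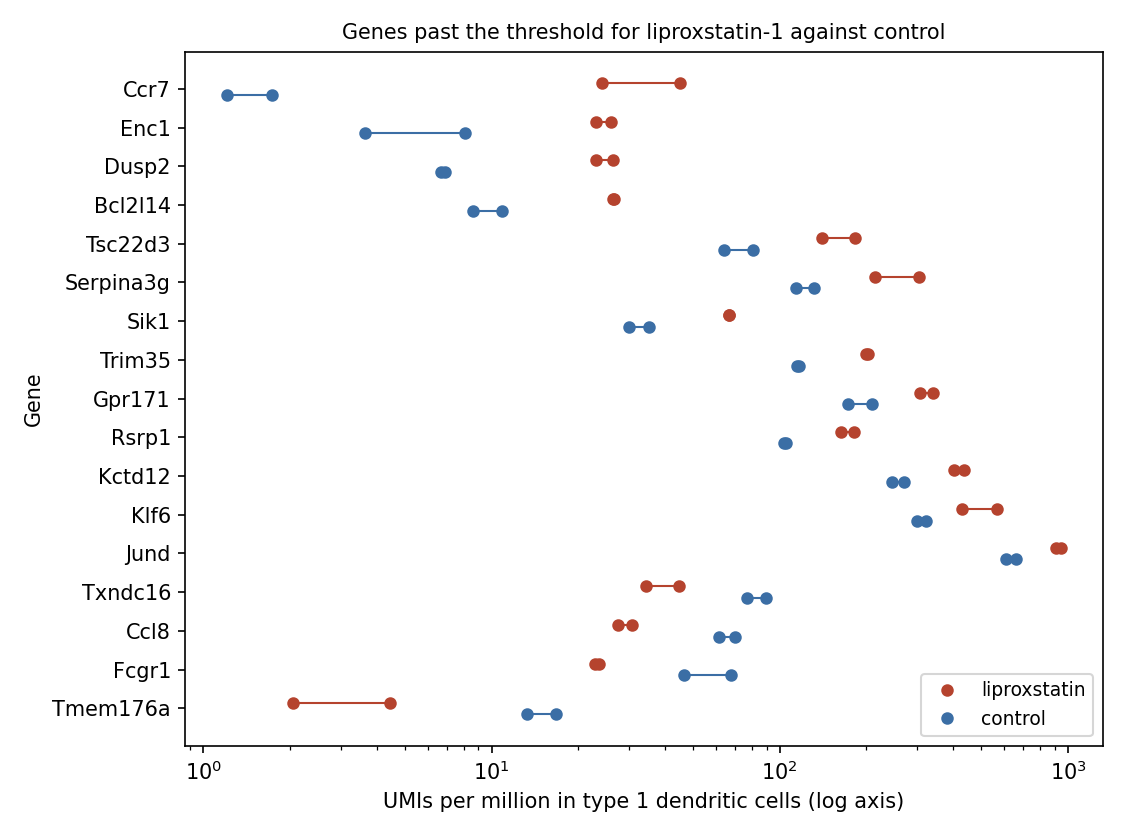
CPM (log axis) of the genes past the threshold between liproxstatin and control type 1 cells, Il12b left out because it was at 0 in both control libraries. Each point is a library and lines join the 2 libraries of a group, and the groups do not overlap for any gene shown. Ccr7, a gate gene, is shown as a description.

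Ccr7 and Il12b rested on few cells. Ccr7 was a gate gene, so its values are a description: it had 132 and 47 UMIs in 7 and 5 liproxstatin cells, against 3 and 2 UMIs in 2 and 2 control cells. The shares of cells with Ccr7 were 7.61% and 6.85% in liproxstatin (exact 95% intervals 3.11 to 15.1% and 2.26 to 15.3%) and 3.57% and 3.39% in control libraries (0.435 to 12.3% and 0.413 to 11.7%). The intervals overlapped, and the UMIs per cell differed more than the number of cells, with up to 57 UMIs in 1 liproxstatin cell and at most 2 in any control cell. Il12b had 41 and 17 UMIs in 5 and 1 liproxstatin cells and 0 UMIs in the control libraries, where 0 of 56 and 0 of 59 cells (3 counts of the total) allow a share of cells with a UMI of up to 5.36% and 5.08%. Pooled over the libraries this was 11.9 CPM in liproxstatin, at least 13.4-fold higher than the 0.886 CPM that 3 UMIs would give in the control libraries. It entered the test through the liproxstatin libraries alone, so its call is no support for the size. 50 of the 58 UMIs, 86.2%, came from 2 cells, 1 in each liproxstatin library, and both cells also held Ccr7. Without liproxstatin replicate 1 Il12b did not pass.

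The 8 members with at least 2 UMIs of Ccr7 had some of the maturation genes of migratory cells and lacked others. They were 5 and 2 cells of the liproxstatin and 1 and 0 of the control libraries, while members without Ccr7 came from both groups. Ccr7 and treatment are thus not separated here. Their median depth was 38254 UMIs, against 28428 in the rest, and levels summed over 8 cells can rest on single cells. Ccl17, a chemokine of mature dendritic cells, stood at 1151 CPM in them, against 57.4 CPM in members without Ccr7, and Ccl22 at 291 against 23.4 CPM, Cd40 at 158 against 43.3 CPM, Cd80 at 78.8 against 12.5 CPM and Cd83 at 518 against 193 CPM. Cxcl9, a chemokine for T cells, stood at 2548 against 405 CPM. Fscn1, an actin-bundling protein that the rule uses, was at 0 in the 8 cells and at 1319 CPM in migratory cells, and Cd63, a lysosomal membrane protein, was at 6.06 CPM, against 14.6 CPM in members without Ccr7 and 964 CPM in migratory cells. Their Xcr1, at 258 CPM, and Clec9a, at 133 CPM, lay below the 440 and 180 CPM of members without Ccr7. Without all cells that had a UMI of Ccr7, 9 genes rose and 5 fell. Bcl2l14 then did not pass (0.90; adjusted p = 0.737), nor did Klf6, Jund and Serpina3g (adjusted p = 0.0904, 0.0993 and 0.0986), while Tsc22d3, Dusp2, Enc1, Sik1, Trim35, Gpr171, Rsrp1 and Kctd12 did.

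The 4 genes that fell were Fcgr1, Ccl8, Tmem176a and Txndc16. Fcgr1, the high-affinity receptor for immunoglobulin G, had 22.9 and 23.6 CPM in liproxstatin and 67.5 and 46.6 CPM in control libraries (-1.26 ± 0.22; adjusted p = 0.00676). Ccl8, a chemokine for monocytes, had 27.4 and 30.8 CPM in liproxstatin and 61.7 and 70.2 CPM in control libraries (-1.14 ± 0.19; adjusted p = 0.00533). Its levels in type 2 cells of the same libraries were close, at 28.2 and 31.8 CPM in liproxstatin and 74.6 and 58.4 CPM in control, and so were those in migratory cells, at 28.5 and 29.0 against 70.4 and 78.5 CPM, while gated macrophages had 2415 and 2304 CPM in liproxstatin and 4035 and 2637 CPM in control libraries. Gated T cells had 42.9 and 41.5 CPM of Ccl8 in liproxstatin and 98.6 and 96.1 CPM in control libraries. Plasmacytoid cells had 46.3 and 37.8 against 94.6 and 57.5 CPM, and in neutrophils the groups overlapped. The fall was thus not particular to dendritic cells. Tmem176a had 4.45 and 2.05 CPM in liproxstatin and 16.7 and 13.3 CPM in control libraries and, at 13 and 4 UMIs against 29 and 22, entered the test through the control libraries alone. It passed in 4 of 15 alternatives. Txndc16, a thioredoxin-like protein, had 44.8 and 34.4 CPM in liproxstatin and 76.7 and 89.6 CPM in control libraries (-1.01 ± 0.18; adjusted p = 0.00998).

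With only members under 2 UMIs of C1q per 10000 kept, 6 genes rose and 0 fell, at 390 with an unadjusted p under 0.05. This left 79 of 92 and 60 of 73 liproxstatin cells, and 40 of 56 and 34 of 59 control cells. Whether calls were lost because fewer cells remained was not tested. Of the genes that had risen, Dusp2 (1.23; adjusted p = 0.546), Gpr171 (0.61; adjusted p = 0.471), Klf6, Jund, Sik1, Trim35, Bcl2l14 and Serpina3g did not pass then. The log2 fold changes of the last 6 were then 0.68, 0.54, 1.08, 0.75, 1.92 and 0.89. Of those that had fallen, Txndc16 did not pass (-1.05; adjusted p = 0.0862), Fcgr1 was at -0.63 (adjusted p = 1) and Ccl8 at -0.79 (adjusted p = 0.586). With at least 4 UMIs of Xcr1 and Clec9a, Fcgr1 was at -0.88 (adjusted p = 0.936) and Tmem176a at -1.95 (adjusted p = 0.637). Both genes had lower levels in type 1 than in type 2 cells (Fcgr1 130 and 196 CPM in liproxstatin and 149 and 223 CPM in control type 2 cells), and the control libraries held the larger share of members with 2 or 3 UMIs of Xcr1 and Clec9a. The part of macrophage RNA and of type 2 cells in the 4 falls was not tested further. Both the C1q limit and the removal of cells with Ccr7 were chosen after seeing the data.

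Calls were few among the genes that define type 1 cells, as among all genes tested, of which 0.164% were higher and 0.0469% lower, so 0 calls in a list sets it apart from nothing. Of 40 panel genes, 37 were tested and 2, Il12b and Tsc22d3, passed. Of the identity list 0 of 27 tested genes passed, with a median of 0.05 and a range of -0.26 to 0.52. Tlr3 had 140 and 145 CPM in liproxstatin and 110 and 216 CPM in control libraries, and Wdfy4 had 413 and 392 CPM in liproxstatin and 361 and 426 CPM in control libraries. The ranges overlapped for both genes. The class I genes had 0 of 29 calls and a median of -0.02, with H2-K1 at 1300 and 1602 CPM in liproxstatin and 1278 and 1665 CPM in control libraries. The class II genes had 0 of 14 calls and a median of 0.04, with H2-Ab1 at 6969 and 7523 against 7091 and 7901 CPM. The costimulation list had 0 of 15 calls, with Cd86 at 196 and 180 CPM in liproxstatin and 173 and 186 CPM in control libraries. A gene that did not pass is not shown to be unaltered.

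Among chemokines, Cxcl9 had 617 and 459 CPM in liproxstatin and 393 and 421 CPM in control libraries, which do not overlap, and did not pass (0.45 ± 0.13; adjusted p = 0.472). Its thinned share of cells was 33.3% and 36.1% in liproxstatin and 38.2% and 35.7% in control libraries, and 59.8% and 58.9% against 69.6% and 49.2% without thinning. In T cells, which should lack the gene and had a median depth of 10998 UMIs, the thinned share was 5.06% and 3.52% in liproxstatin and 2.56% and 3.24% in control libraries. Cxcl10 had 15.4 and 11.8 CPM in liproxstatin and 132 and 38.2 CPM in control libraries (-2.58 ± 0.97; adjusted p = 0.933). Ccl5 had 5.48 and 11.3 against 13.8 and 33.9 CPM (-1.52 ± 0.52; adjusted p = 0.72), and Ccl22, a ligand of CCR4, 29.1 and 40.0 against 11 and 73.3 CPM.

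The type I interferon list had the lowest median of the 20 lists, -0.48, with a negative sign in 28 of 31 tested genes, and 0 passed (5 had an unadjusted p under 0.05). Isg15 had 308 and 178 CPM in liproxstatin and 528 and 267 CPM in control libraries (-0.67 ± 0.60; adjusted p = 0.987), and Ifit3 11.6 and 7.70 against 70.4 and 26.6 CPM (-2.25 ± 0.68; adjusted p = 0.805). 1 cell alone held 72 of the UMIs of Ifit3. Irf7, the transcription factor that carries the response onward, had 348 and 195 CPM in liproxstatin and 347 and 303 CPM in control libraries. Members of this list respond to the same cytokines and are not independent of each other.

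Genes of ferroptosis showed no call. Of 18 tested defence genes 0 passed, with a median of -0.08, and of 12 promoting genes 0 passed, with a median of -0.18 and a negative sign in 11. Gpx4 had 160 and 178 CPM in liproxstatin and 160 and 169 CPM in control libraries (0.08 ± 0.14; adjusted p = 0.997). Acsl4, which loads membranes with oxidizable fatty acids, had 40.4 and 38.5 CPM in liproxstatin and 52.5 and 40.6 CPM in control libraries (-0.20 ± 0.20; adjusted p = 0.987). Slc7a11 was too low to be tested, at 14 and 3 UMIs in liproxstatin and 19 and 3 UMIs in control libraries. The other lists with 0 calls had medians of -0.20 (cell cycle, 40 tested), -0.17 (dead cell uptake, 12), -0.16 (pattern receptors, 16), -0.08 (lipid uptake and storage, 16), -0.01 (hypoxia and glycolysis, 25), 0.08 (unfolded protein and integrated stress, 16) and 0.13 (NF-kappaB, 29).

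**Figure D4:**
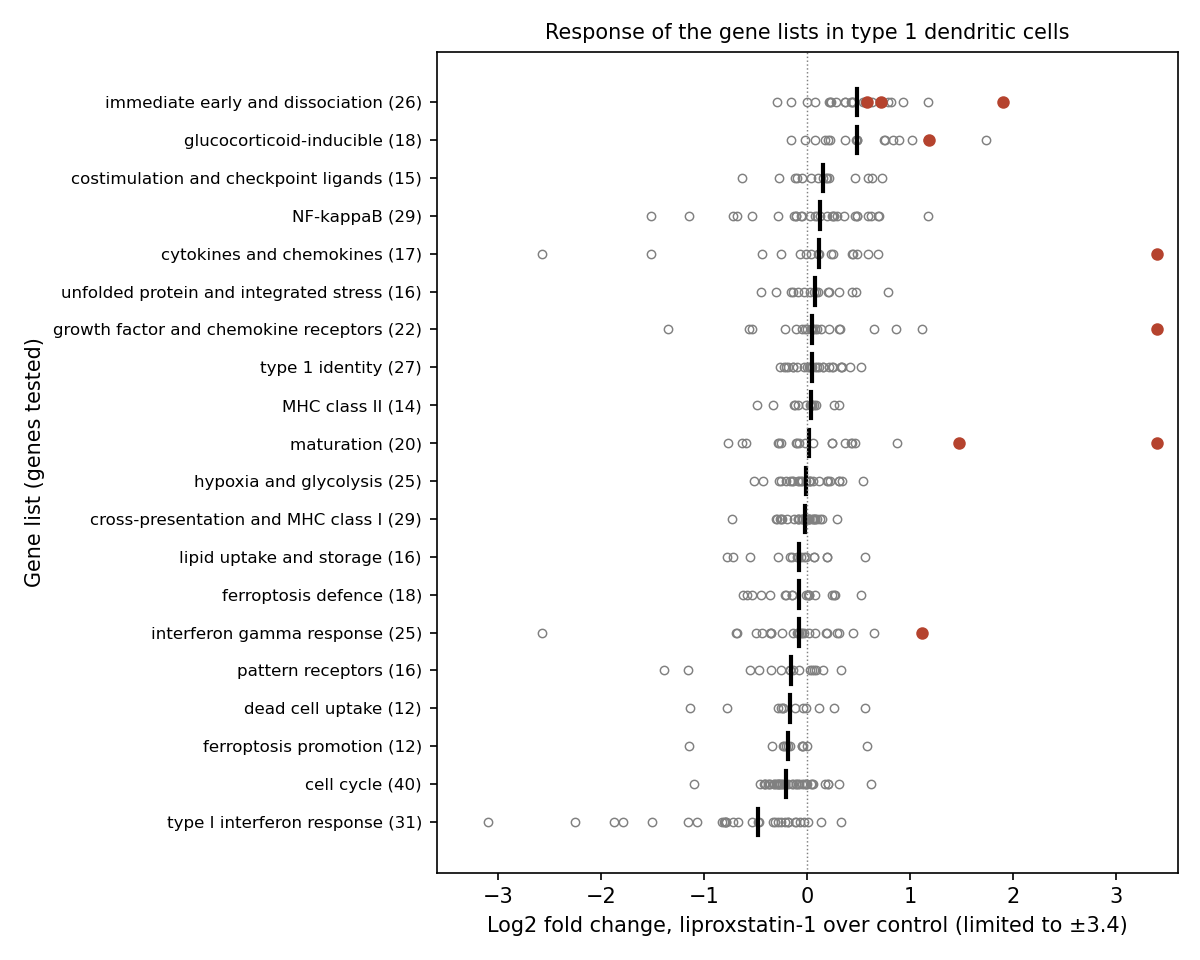
Log2 fold change of liproxstatin over control in type 1 cells for each tested gene of the 20 lists, sorted by the list's median (black bar), with values past 3.4 drawn at the edge. Filled points passed the adjusted threshold, and the immediate early and glucocorticoid-inducible lists have the highest medians, 0.49 each, and the type I interferon list the lowest, -0.48. The filled points include the gate gene Ccr7, as a description.

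Whether the response of type 1 cells differed from that of other dendritic cells was tested with an interaction term. Against type 2 cells 1 of 8167 genes passed (0.0122%), and against migratory cells 2 of 7843 (0.0255%). Ccr7 was the 1 gene against type 2 cells and 1 of the 2 against migratory cells. The rule uses Ccr7, so nothing is read from it, and against type 2 cells no gene outside the rule passed. For Ccl5, type 1 cells had 16 and 22 UMIs in liproxstatin and 24 and 56 UMIs in control libraries, of which 1 cell held 42. Migratory cells had 5208 and 12320 CPM of Ccl5 in liproxstatin and 4807 and 7362 CPM in control libraries (difference of log2 fold changes -1.87 ± 0.24; adjusted p = 0.00323). Without control replicate 2 the difference was -1.45 (adjusted p = 0.357), and with at least 4 UMIs of Xcr1 and Clec9a it was -0.28 (adjusted p = 1). Against type 2 cells, dropping control replicate 1 gave 11 genes higher and 21 lower, dropping control replicate 2 gave 13 and 56, dropping liproxstatin replicate 1 gave 1 and 7, and dropping liproxstatin replicate 2 gave 0 and 0 (294 with an unadjusted p under 0.05). Against migratory cells the higher and lower counts were 6 and 1 when control replicate 1 was dropped, 1 and 0 for control replicate 2, 6 and 13 for liproxstatin replicate 1, and 9 and 3 for liproxstatin replicate 2. Tsc22d3 did not differ in response beyond the spread from type 2 cells (-0.51 ± 0.42; adjusted p = 1) or migratory cells (0.29 ± 0.52; adjusted p = 1), and neither did Ccl8 (-0.03 ± 0.38 and 0.24 ± 0.56; adjusted p = 1 each). Il12b in migratory cells had 1584 and 2158 CPM in liproxstatin and 963 and 539 CPM in control libraries, and the difference in response did not pass (adjusted p = 0.0566).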

How the data were processed

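Single-cell RNA libraries of CD45-selected cells from CT26 tumours were analysed, 2 per group. The deposited values are raw UMI counts per gene and cell, with no normalization, made with Cell Ranger on mm10 per the submitters' processing notes (version 4), while the matrix header names version 6.1.1. Cells, gates and depths are given in the report. The other classes excluded type 1 members. Type 2 cells had at least 1 UMI of Flt3 and Zbtb46 summed, at least 2 of Cd209a, Clec10a and Mgl2, 0 of Xcr1 and Clec9a and under 3 of Ly6c2. Migratory cells had at least 2 of Ccr7 and of Fscn1, plasmacytoid cells at least 3 of Siglech, macrophages at least 10 C1q UMIs per 10000, T cells at least 2 of Cd3d and Cd3e, and neutrophils at least 10 of S100a8 and S100a9 with Csf3r. Doublets were ranked with Scrublet at 0.8% per 1000 barcodes, kept, and left out in an alternative. Counts were summed per library and class and tested with edgeR 4.0.16 (filterByExpr, TMM, robust quasi-likelihood, adjusted p threshold 0.05) in R 4.3.3. DESeq2 1.42.0 was an alternative. Cells were handled with scanpy 1.11.5 in Python 3.11.15. The fitting was tested on simulated data. Genes named for treatment were the up to 15 highest and 15 lowest past the threshold plus a panel of 40 genes. Between classes they were the 12 highest and 8 lowest with at least 100 CPM in the higher class, list members that pass, and the panel. The members and lists were chosen with earlier results of these data known. Promoters are RefSeq sequences of GRCm38.p6. The alternatives changed filters, scaling, tool, gate, thinning, the cells or the libraries included.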

Additional observations from a re-analysis of the deposited data

Results flagged for a closer look

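Responses that differed between dendritic cell classes by an interaction term in edgeR's fit were those of Ccr7 and Ccl5. Ccr7 belongs to the rule that chose the cells, so its differences in log2 fold change, 4.75 against type 2 and 4.44 against migratory cells, are a description with no test, and its UMIs came from 12 liproxstatin and 4 control cells. For Ccl5 the difference between type 1 and migratory cells was -1.87 ± 0.24 (adjusted p = 0.00323). 1 control cell held 42 of the 56 UMIs of Ccl5 in type 1 cells of control replicate 2. Without that library the difference was -1.45 (adjusted p = 0.357), and with at least 4 UMIs of Xcr1 and Clec9a it was -0.28 (adjusted p = 1).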

How the results depend on the processing

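Liproxstatin against control gave 14 genes higher and 4 lower, and 43 and 38 without a filter, 9 and 1 with DESeq2, 2 and 3 without cycling cells, 0 and 0 with 3 dendritic cell types in 1 fit, 9 and 5 without cells with Ccr7 and 6 and 0 under 2 C1q UMIs per 10000. Without cycling cells 26 to 38 cells per library remained, and 2 of the 5 genes called were among the 18. Leaving out 1 library gave 2 to 91 higher and 2 to 84 lower. With the replicate number as a block the counts were 23 and 15. The log2 difference between replicates 1 and 2 in liproxstatin correlated at 0.15 with that in control over 8531 genes. With 2 pairs the numbers give no pairing. The replicate numbers are those of the labels, and the deposited matrices carry other numbers. Without a filter 1355 genes were higher in type 1 than in type 2 cells, and the interaction counts were 4 higher and 25 lower against type 2 cells and 5 and 4 against migratory cells. Leaving out 1 library gave 0 to 13 higher and 0 to 56 lower against type 2 cells, and 1 to 9 and 0 to 13 against migratory cells. With at least 4 UMIs of Xcr1 and Clec9a, 0 were lower against migratory cells. The difference in the share of kept cells was -0.188 points and ran from -0.464 to 0.089 with 1 library left out, positive without control replicate 1. The share of gated dendritic cells turned to 0.12 without doublets, 2.42 with at least 4 UMIs, 0.679 with at least 1 UMI per 10000, and ran from -4.85 to 3.78 with 1 library left out. The share with Mki67 or Top2a turned to 1.8 without thinning and ran from -8.82 to 6.65 with 1 library left out, and that with Ccl22 turned to 1.86 without thinning and ran from -1.96 to 1.54. The log2 fold change of Ccl22 ran from -1.05 to 1.67 with 1 library left out. The cause of these changes was not tested. With 56 to 92 cells per library, genes of few UMIs rest on single cells.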
